A study of Homo sapiens with 6 samples.

Results

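GPRC5A, EMP1 and their neighbours DUSP16, CREBL2, GPR19, APOLD1, DDX47 and HEBP1 lie on the short arm of human chromosome 12, between positions 12474210 and 13219939 of hg38, and were described here in HepG2 cells treated with oridonin. HepG2 is an established human liver carcinoma line, and oridonin is a diterpenoid of the plant Isodon rubescens. The 8 genes were taken by symbol from the deposited gene names. All 8 of the 8 listed symbols were found, among 18404 genes with deposited log2 FPKM values (read fragments adjusted for gene length and depth, on a log2 scale) and 60504 genes with deposited counts. The list was drawn up with the oridonin response of these libraries already known: GPRC5A and EMP1 were selected on their measured fold change and the others by their position beside them. The response of all 8 is therefore given as a description with no p-value, while tests are given for genes outside the list. Where a gene of the list is said to be called or not called, this is the label from the fit alone. Given how the list was chosen, such a label is not evidence of a response. All 8 passed the filter on low counts, as did 15116 genes in all.

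The cells had been held for 48 h in 10 µM oridonin or in 0.1% DMSO, the solvent control, with 3 libraries per treatment. The DMSO content of the oridonin wells is not stated in the labels, and nothing in them says that the 3 libraries came from separate cultures, so the p-values reflect variation among these samples alone, and that variation may be technical. Total counts ran from 22250202 to 30739574 per library. Over all genes tested with edgeR's quasi-likelihood test, 41.9% were called at an adjusted p under 0.05, with 20.6% of the tested genes higher and 21.3% lower after oridonin. Calls going up made up 49.2% of all calls with TMM scaling (trimmed mean of M values, which centres the bulk of the genes) and 65.5% with scaling to total counts alone. The defining liver genes were present: the summed level of 9 hepatocyte markers was 25069 to 28364 CPM (counts scaled to library size) in DMSO and 14831 to 16954 CPM with oridonin, and ALB, encoding serum albumin, had a mean of 6864 ± 341 CPM in DMSO and 4025 ± 305 CPM with oridonin (SD, n = 3), a fall with an edgeR adjusted p = 1.73e-08. Of the 9 markers 6 were called lower, FGB, a fibrinogen gene, was higher (log2 fold change 1.23 ± 0.10, edgeR adjusted p = 5.18e-08), and TTR and HNF4A were not called. In bulk samples fewer cells of a type and less RNA per cell cannot be told apart.

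GPRC5A encodes an orphan receptor of the class C family of G protein-coupled receptors, which retinoic acid induces in epithelial cells and which is best known from lung epithelium. EMP1 encodes an epithelial membrane protein, a tetraspan protein related to the myelin protein PMP22, and is abundant in squamous epithelia. The neighbours have unrelated functions. DUSP16 is a phosphatase of the stress kinases JNK and p38, CREBL2 a bZIP protein related to the factor CREB, GPR19 an orphan receptor, APOLD1 an apolipoprotein L domain protein known from endothelium, DDX47 a nucleolar RNA helicase of ribosome production, and HEBP1 a heme-binding protein whose cleaved peptide attracts leukocytes.

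The start regions of the member that rose the most and of the one called lower are shown as examples of how unlike they are in base composition. RefSeq windows of 300 bases, from 250 before to 50 after the annotated start on GRCh38.p14, were found for 5 of the 8 genes, in 6 windows. The EMP1 window, chr12:13196476-13196775 on the plus strand, has capitals at the matches to TGANTCA, the AP-1 motif. The DUSP16 window, chr12:12562814-12563113 on the minus strand, has capitals at the match to GGGCGG, the GC box. It lies wholly upstream of DUSP16 as annotated in the deposited file, where the gene ends at 12562383, since RefSeq places the start farther out. Both are written 5' to 3' on the strand of the gene.
EMP1: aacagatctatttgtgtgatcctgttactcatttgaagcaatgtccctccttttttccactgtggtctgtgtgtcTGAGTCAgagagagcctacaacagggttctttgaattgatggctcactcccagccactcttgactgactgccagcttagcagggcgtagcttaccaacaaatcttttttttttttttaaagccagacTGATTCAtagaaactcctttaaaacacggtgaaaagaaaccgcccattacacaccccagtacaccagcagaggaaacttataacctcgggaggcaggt
DUSP16: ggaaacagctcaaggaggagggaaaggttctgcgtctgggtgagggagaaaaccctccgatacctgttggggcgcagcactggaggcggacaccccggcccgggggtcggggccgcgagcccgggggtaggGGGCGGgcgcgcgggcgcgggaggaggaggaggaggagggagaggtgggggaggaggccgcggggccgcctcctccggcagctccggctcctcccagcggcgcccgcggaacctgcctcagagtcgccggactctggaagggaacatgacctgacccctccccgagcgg

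The EMP1 window was 44.3% G or C with 4 CpG dinucleotides, lower than the median window of the RefSeq table (58.7% and 14). The DUSP16 window was 73.3% G or C with 29 CpG, above that median. EMP1 had AP-1 matches at -175 (TGAGTCA) and -48 (TGATTCA), counted from the start site to the first base of the match. Searched on both strands, this motif occurred in 7.71% of all 35116 windows, and at least 2 matches occurred in 0.515% of them. The EMP1 window also held a GC box on the minus strand at -9, a motif found in 45.0% of windows, and no match to the cAMP response element TGACGTCA (1.85% of windows), its shorter form TGACG (24.6%, which lies inside it), the antioxidant response element core TGACNNNGC (13.3%), TATAAA (11.5%), CCAAT (34.6%) or AGGTCA (13.8%), the core that retinoic acid receptors bind. None of the windows of the other 4 genes, DUSP16, CREBL2, APOLD1 and DDX47, had an AP-1 match. GPRC5A, GPR19 and HEBP1 had no window, so their start regions were not searched for any motif. DUSP16 had its GC box at -119 and a match to AGGTCA on the minus strand at 28. A match is a stretch of letters and not a measured binding site.

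Oridonin-treated cells had more EMP1 and GPRC5A RNA than control cells, in every library. EMP1 (ENSG00000134531, 13196716 to 13219939, plus strand) had 24, 38 and 41 counts in the DMSO libraries, in the order of their numbers, and 557, 547 and 451 counts in the oridonin libraries. The oridonin libraries were all far above the DMSO libraries, and the groups did not overlap. Scaled to library size, the mean level went from 1.31 ± 0.203 to 17.1 ± 0.952 CPM (SD, n = 3), a fitted log2 fold change of 3.69 ± 0.13 (SE), or 12.9-fold. Ordered by log2 fold change, EMP1 was number 9 from the top of 15116 genes. On the deposited log2 FPKM scale its level was -2.86, -2.56 and -2.39 in DMSO and 1.15, 1.19 and 1.04 with oridonin.

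GPRC5A (ENSG00000013588, 12890782 to 12917937, plus strand) had 130, 190 and 224 counts in DMSO and 980, 1012 and 860 with oridonin. These groups did not overlap either, and the lowest oridonin library held several times the counts of the highest control. The mean went from 6.93 ± 1.15 to 31.4 ± 1.29 CPM (SD, n = 3), a log2 fold change of 2.17 ± 0.09 (SE), or 4.50-fold, number 62 from the top. Its deposited level was -0.53, -0.35 and -0.04 log2 FPKM in DMSO and 1.86, 1.97 and 1.87 with oridonin. In both groups GPRC5A stood above EMP1 on this length-scaled measure, and the oridonin-minus-DMSO difference in mean log2 FPKM was 3.73 for EMP1 and 2.21 for GPRC5A. DMSO library 1 was the lowest control for both genes.

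**Figure D1:**
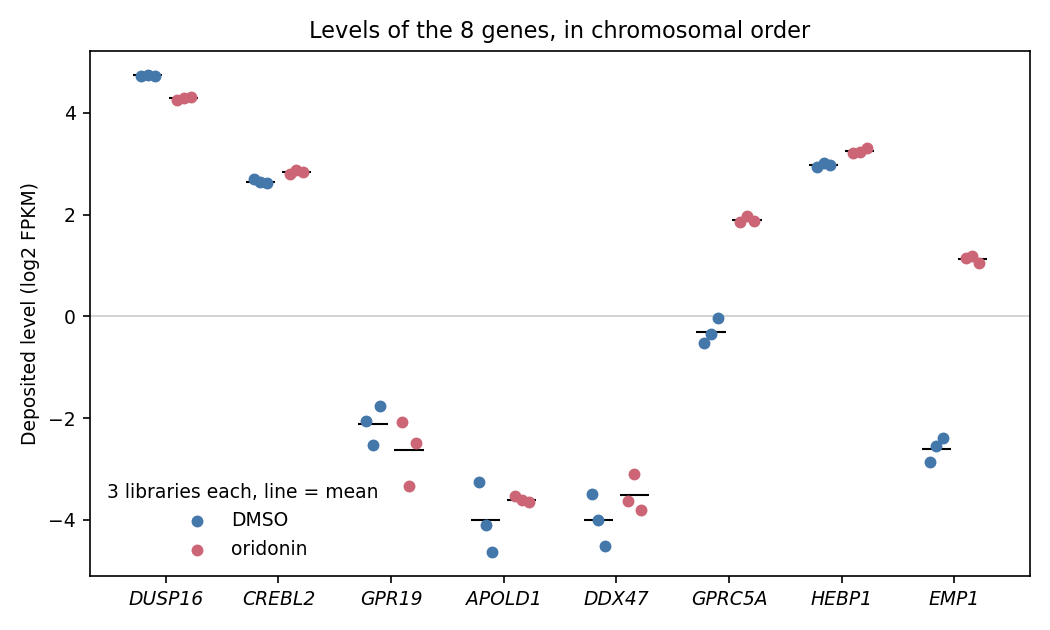
Deposited log2 FPKM level (vertical axis) of each gene in chromosomal order (horizontal axis), with 1 point per library, 3 DMSO (blue) and 3 oridonin (red) libraries, and a line at each group's mean. EMP1 moves from a mean of -2.60 to 1.13 and GPRC5A from -0.31 to 1.90, while the groups of GPR19, APOLD1 and DDX47 overlap.

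HEBP1 and CREBL2 were slightly higher with oridonin. HEBP1 (ENSG00000013583, 12974864 to 13000273, minus strand) was at 26.6, 28.1 and 27.0 CPM in DMSO and at 32.0, 32.1 and 33.6 CPM with oridonin. The groups were apart, with means of 27.2 ± 0.748 and 32.6 ± 0.864 CPM (SD, n = 3) and a log2 fold change of 0.26 ± 0.06 (SE). HEBP1 shares 434 exon bases, 12.6% of its exons, with the opposite-strand gene GPRC5D-AS1, which had 56 to 100 counts per library against 584 to 1020 for HEBP1. CREBL2 (ENSG00000111269, 12611827 to 12645108, plus strand) was at 25.9, 24.5 and 23.8 CPM in DMSO and at 27.2, 28.4 and 27.8 CPM with oridonin. The lowest oridonin library was only just above the highest control. Its means were 24.8 ± 1.06 and 27.8 ± 0.639 CPM (SD, n = 3) and its log2 fold change 0.17 ± 0.06 (SE). CREBL2 was called in 7 of 15 alternative analyses. The call was lost without DMSO library 2 (log2 fold change 0.16), DMSO library 3 (0.14) or oridonin library 1 (0.19), 2 (0.15) or 3 (0.17), and also with DESeq2's size factors (0.16), with no low-count filter (0.19) and with DESeq2's own test (0.16).

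DUSP16 was the 1 gene of the list called lower. DUSP16 (ENSG00000111266, 12474210 to 12562383, minus strand) had 3388, 4411 and 4122 counts in DMSO and 3473, 3460 and 3165 with oridonin. In raw counts oridonin libraries 1 and 2 lie above DMSO library 1, which was the library of lowest depth. Scaled to depth, the levels were 154, 155 and 151 CPM in DMSO and 109, 112 and 112 CPM with oridonin, and the groups were far apart. The means were 153 ± 2.40 and 111 ± 1.86 CPM (SD, n = 3), a log2 fold change of -0.46 ± 0.05 (SE). Among the 8 genes DUSP16 had the highest level in both groups, at a mean of 4.73 log2 FPKM in DMSO and 4.29 with oridonin.

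GPR19, APOLD1 and DDX47 were near the lower limit of what these libraries can measure, and none of them was called. GPR19 (ENSG00000183150, 12660891 to 12696207, minus strand) had 14, 13 and 21 counts in DMSO and 20, 8 and 13 with oridonin, a log2 fold change of -0.45 ± 0.37 (SE). APOLD1 (ENSG00000178878, 12725917 to 12829975, plus strand) had 17, 12 and 8 counts in DMSO and 20, 18 and 16 with oridonin, at 0.31 ± 0.36. DDX47 (ENSG00000213782, 12813316 to 12829981, plus strand) had 10, 9 and 6 counts in DMSO and 13, 18 and 10 with oridonin, at 0.48 ± 0.39. For all 3 genes the groups overlapped and the standard error was about as large as the value, so a difference was not detectable with these counts. These genes lie above the floor of 3 counts per library, which corresponds to 0.0942 to 0.137 CPM.

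The low level of DDX47 stood beside an overlap in the gene annotation. In GENCODE 29, whose exon lengths equal the deposited ones for all 8 genes, DDX47 and APOLD1 share 1841 exon bases on the same strand, which is 36.5% of DDX47 and 25.4% of APOLD1. The shared bases hold nearly all of the coding transcripts of DDX47: between 99.7% and 100% of the bases of each of its 3 coding transcripts lie inside exons of APOLD1, chiefly through a 15-exon APOLD1 transcript annotated for nonsense-mediated decay. The coding transcripts of APOLD1, in contrast, share no base with DDX47. The other 14 nucleolar helicases of the DEAD-box list had mean levels of 1.65 to 6.64 log2 FPKM in DMSO and 1.86 to 6.53 with oridonin, against -4.01 and -3.51 for DDX47. The 2 genes together had 27, 21 and 14 counts in DMSO and 33, 36 and 26 with oridonin. How reads in shared exons were counted is not given in the sources used here, and the part of the overlap in the low counts was not tested. Of the other members, GPRC5A shares 90 bases (1.07%) with the microRNA gene MIR614, and EMP1, DUSP16, CREBL2 and GPR19 share none.

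Ordered by mean log2 FPKM in DMSO, the genes ran from DUSP16 (4.73) through HEBP1 (2.97), CREBL2 (2.65), GPRC5A (-0.31), GPR19 (-2.12), EMP1 (-2.60) and APOLD1 (-4.00) to DDX47 (-4.01). The libraries of GPR19 and EMP1 overlapped in DMSO, as did those of APOLD1 and DDX47, and the other neighbours in this order were apart. With oridonin the order was DUSP16 (4.29), HEBP1 (3.25), CREBL2 (2.83), GPRC5A (1.90), EMP1 (1.13), GPR19 (-2.63), DDX47 (-3.51) and APOLD1 (-3.60). EMP1 had thus passed GPR19 and stood clear of it, while GPRC5A stayed below CREBL2. In that group the libraries of DDX47 overlapped those of GPR19 and those of APOLD1. Over all 6 libraries DUSP16 was number 2098 and DDX47 and APOLD1 numbers 16750 and 16781 of the 18404 genes by level.

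In all, 4 of the 8 genes were called higher, 1 lower and 3 not at all, where 41.9% of all tested genes were called. The groups did not overlap for 5 of the 8, against 51.6% of all tested genes. The median log2 fold change was 0.28 over the 8 genes and 0.01 over all tested genes. These counts follow in part from how the genes were chosen, and nothing is read from them.

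**Figure D2:**
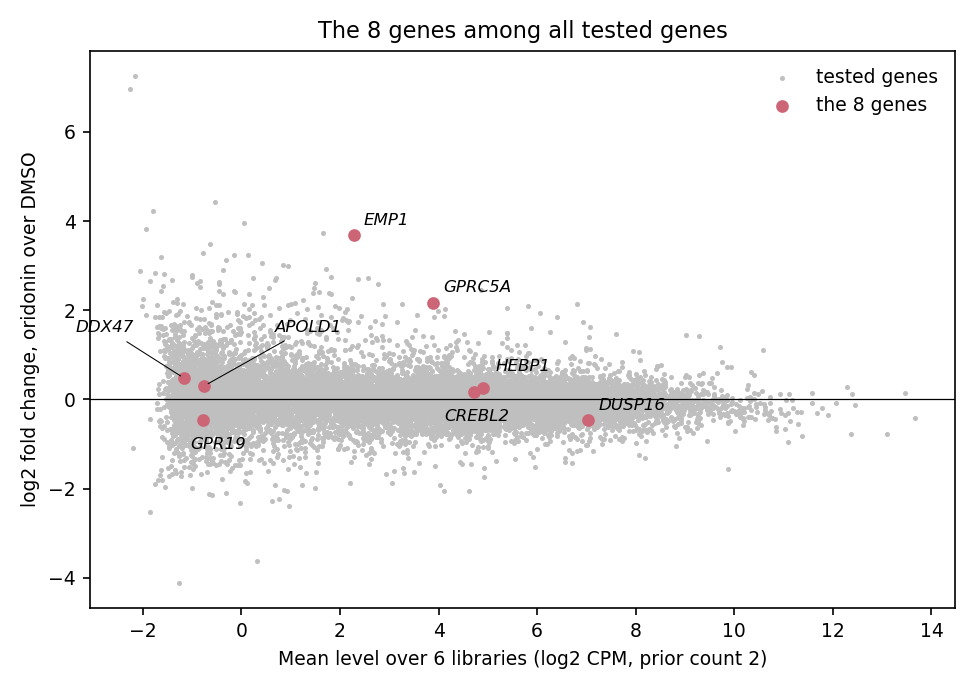
Log2 fold change of oridonin over DMSO (vertical axis) against mean level over 6 libraries in log2 CPM (horizontal axis), with 1 grey point for each of the 15116 tested genes and the 8 genes in red. EMP1 at 3.69 and GPRC5A at 2.17 lie at the upper edge of the genes of their level, and DUSP16 at -0.46 and HEBP1 at 0.26 lie inside the grey cloud.

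The rise did not extend evenly over the region. The 745.73 kb from the start of DUSP16 to the end of EMP1 holds 30 genes of the count table, of which 24 had a count and 14 were tested. Of those 14, 5 were called higher and 2 lower, a count that includes GPRC5A and EMP1, which were selected on their fold change. Of the 6 tested genes that are not on the list, 1 was higher and 1 lower, where 20.6% and 21.3% of all tested genes were. CDKN1B, encoding the cell cycle inhibitor p27, was lower: its level was 133 ± 3.83 CPM in DMSO and 91.7 ± 0.340 with oridonin (SD, n = 3), at a log2 fold change of -0.54 ± 0.05 (SE, edgeR adjusted p = 1.27e-07). The pseudogene HTR7P1 was higher, with 27, 28 and 12 counts in DMSO and 68, 74 and 82 with oridonin, a log2 fold change of 1.51 ± 0.27 (SE, edgeR adjusted p = 0.000265). It begins just beyond the HEBP1 gene, at 13000420.

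The 278.778 kb between the end of GPRC5A and the start of EMP1 also contain genes that were not called. FAM234B, a membrane protein gene that fills part of this gap (13044284 to 13142521), was at 17.3 ± 0.501 CPM in DMSO and 18.6 ± 2.05 with oridonin, with a log2 fold change of 0.10 ± 0.08 (SE, edgeR adjusted p = 0.335). GPRC5D, the close relative of GPRC5A beside it, had 29, 26 and 31 counts in DMSO and 31, 32 and 33 with oridonin, a log2 fold change of -0.07 ± 0.24 (edgeR adjusted p = 0.843). GPRC5D-AS1 was at 0.20 ± 0.17 (edgeR adjusted p = 0.355), and on the other side of GPRC5A the intronic transcript RP11-180M15.7, which lies within CDKN1B, was at -0.04 ± 0.33 (edgeR adjusted p = 0.936). RPL13AP20, a ribosomal protein pseudogene next to GPRC5A, had 4, 4 and 4 counts in DMSO and 15, 9 and 9 with oridonin, and failed the low-count filter.

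Just outside the interval, on the DUSP16 side, BORCS5 had 301, 348 and 334 counts in DMSO and 461, 480 and 435 with oridonin, or 12.7 ± 0.870 and 15.2 ± 0.599 CPM (SD, n = 3). On the EMP1 side the nearest gene was LINC01559, with 0, 1 and 0 counts in DMSO and 2, 4 and 2 with oridonin, and the nearest protein-coding gene, GRIN2B, had 1 to 5 counts in each library. Neither passed the low-count filter. Within 1 Mb on both sides together, 33 genes were in the count table and 5 were tested. Of these 2 were called higher and 1 lower, where 20.6% and 21.3% of all tested genes were. LOH12CR2, with 8 to 14 counts in DMSO and 26 to 29 with oridonin, was higher (log2 fold change 1.14 ± 0.31, edgeR adjusted p = 0.00612). BORCS5 was also higher (0.26 ± 0.08, edgeR adjusted p = 0.0176), and LRP6 was lower (-0.33 ± 0.05, 0.000110).

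**Figure D3:**
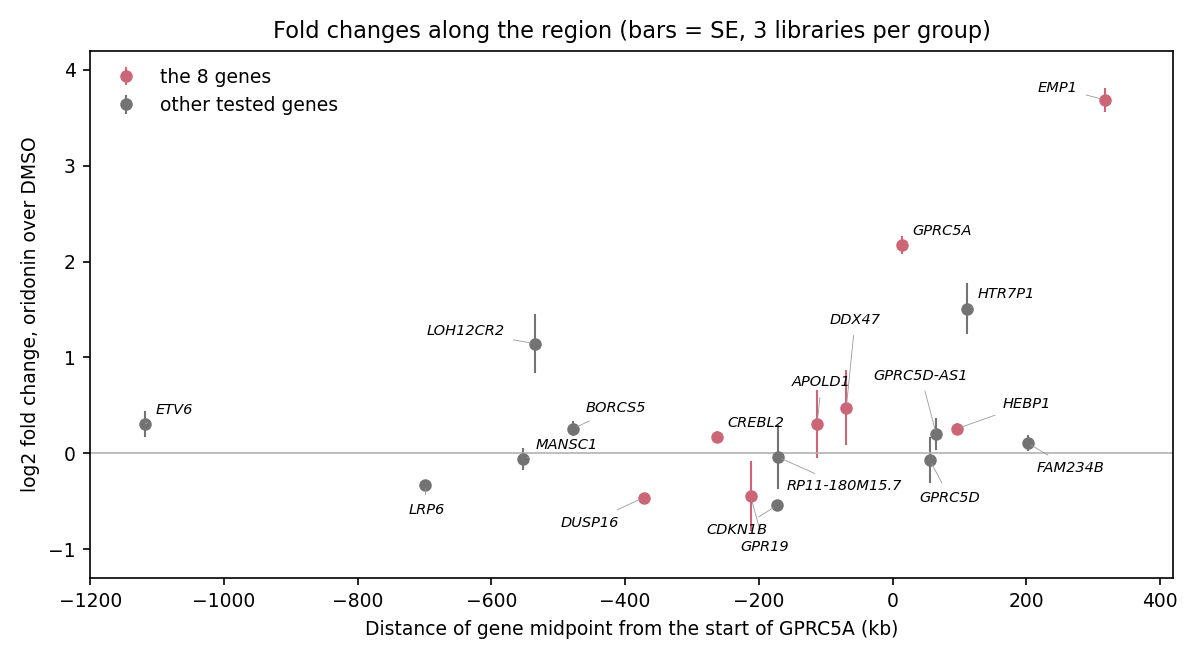
Log2 fold change of oridonin over DMSO (vertical axis, bars = SE, 3 libraries per group) of each tested gene against the distance of its midpoint from the start of GPRC5A in kb (horizontal axis), with the 8 genes in red and other tested genes in grey. EMP1 and GPRC5A are the highest points. Between them lie GPRC5D-AS1 at 0.20, GPRC5D at -0.07, HEBP1 at 0.26, HTR7P1 at 1.51 and FAM234B at 0.10.

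The relatives of GPRC5A and EMP1 showed no common direction. Of the other class C orphan receptors, GPRC5B was lower (1.23 ± 0.136 to 0.476 ± 0.0890 CPM, log2 fold change -1.36 ± 0.27 (SE), edgeR adjusted p = 0.000714), with 26.7% of its exon bases shared with IQCK on the opposite strand. GPRC5C, the family member with the highest level here, was at 300 ± 26.3 CPM in DMSO and 346 ± 28.2 with oridonin (log2 fold change 0.21 ± 0.07, edgeR adjusted p = 0.0242). Its groups overlapped, and its call was lost without DMSO library 1 (edgeR adjusted p = 0.0948), DMSO library 2 (0.0913) or oridonin library 3 (0.0994). The call was also lost with limma on the deposited log2 FPKM (limma adjusted p = 0.0759). On the length-scaled measure GPRC5C was at a mean of 5.21 log2 FPKM in DMSO, well above GPRC5A at -0.31.

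In the PMP22 family, EMP3 was higher, EMP2 lower and PMP22 not called. EMP3 had 171, 189 and 249 counts in DMSO and 854, 849 and 866 with oridonin, with means of 7.84 ± 1.23 and 28.4 ± 2.06 CPM (SD, n = 3) and a fitted log2 fold change of 1.85 ± 0.10 (SE, edgeR adjusted p = 4.95e-10). It lies on chromosome 19 and shares 13% of its exon bases with ODAD1 on the opposite strand. EMP2 had a mean of 26.9 ± 0.694 CPM in DMSO and 16.2 ± 0.916 with oridonin (log2 fold change -0.73 ± 0.07, edgeR adjusted p = 2.95e-07). On the length-scaled measure EMP1 had the lowest level of the family in DMSO, at a mean of -2.60 log2 FPKM against 0.54 for PMP22, 1.62 for EMP2 and 2.21 for EMP3. PMP22 was at 4.32 ± 0.790 CPM in DMSO and 4.79 ± 0.658 with oridonin (0.16 ± 0.15, edgeR adjusted p = 0.406). EMP1 and EMP3 thus rose while EMP2 fell.

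The 1 relative of HEBP1, HEBP2, was higher by nearly the same small amount, from 87.7 ± 3.98 to 100.1 ± 3.74 CPM (log2 fold change 0.19 ± 0.05, edgeR adjusted p = 0.00775), and its call was lost without DMSO library 2 (edgeR adjusted p = 0.0548). Of the 6 apolipoprotein L genes, which share the domain that names APOLD1, 4 were tested and 3 called lower, where 21.3% of all tested genes were lower: APOL1 at -0.52 ± 0.07 (edgeR adjusted p = 1.31e-05), APOL2 at -0.25 ± 0.05 (0.000588) and APOL6 at -0.85 ± 0.09 (6.46e-07). APOL3 was not called (-0.14 ± 0.30, edgeR adjusted p = 0.746), and APOL4 and APOL5 failed the low-count filter.

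**Figure D4:**
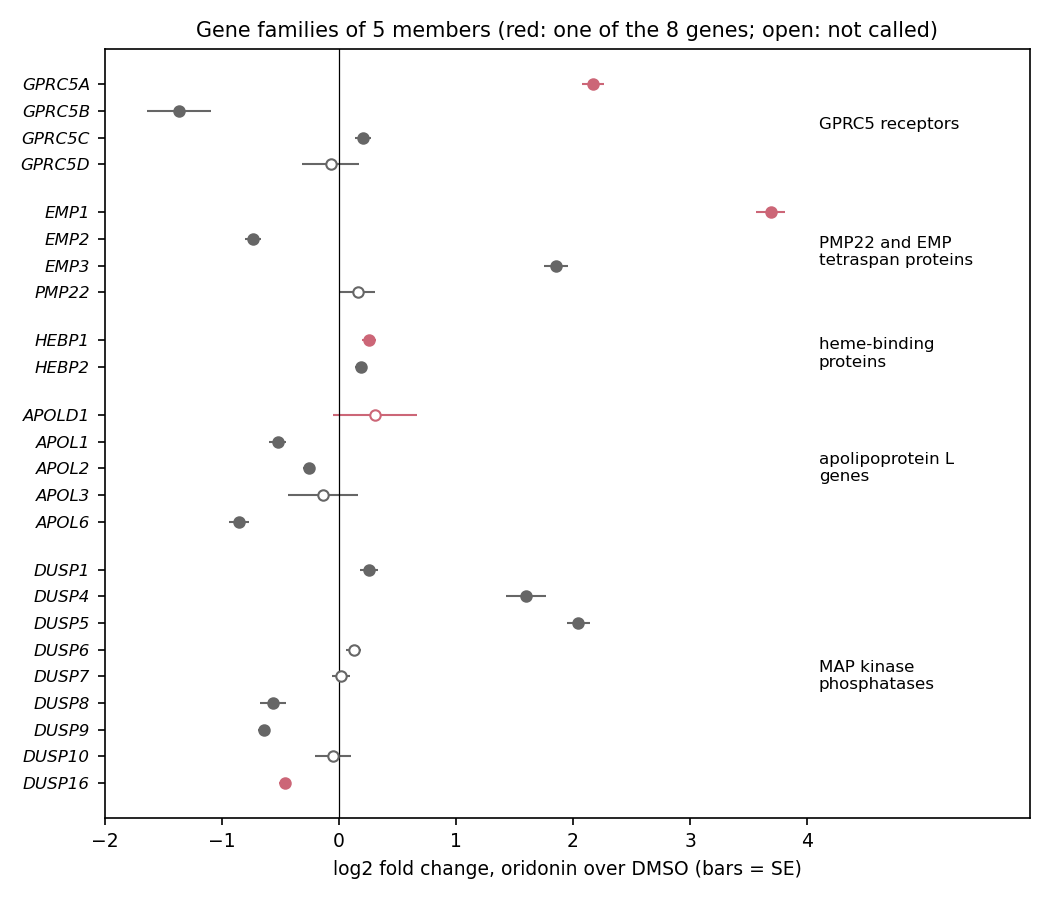
Log2 fold change of oridonin over DMSO (horizontal axis, bars = SE) of the tested genes of 5 families (vertical axis), with the 8 genes in red, other genes in grey and open points for genes not called. GPRC5A at 2.17 has GPRC5B at -1.36 in its family, and DUSP16 at -0.46 has DUSP5 at 2.05.

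DUSP16 was read beside the other phosphatases of MAP kinases. Of 8 other tested members, 3 were higher and 2 lower (median 0.07 on the log2 scale), where 20.6% of all tested genes were higher and 21.3% lower. The ERK phosphatases DUSP5 and DUSP4 were higher. DUSP5 was at 20.6 ± 3.97 CPM in DMSO and 85.6 ± 1.92 with oridonin (log2 fold change 2.05 ± 0.10, edgeR adjusted p = 2.17e-08). DUSP4 was at 1.61 ± 0.427 and 4.97 ± 0.161 CPM (1.60 ± 0.17, 9.17e-07). DUSP1 was at 0.26 ± 0.08 (edgeR adjusted p = 0.0126) and lost its call without DMSO library 1 (0.0584), DMSO library 2 (0.0720) or oridonin library 3 (0.0509). DUSP9 (-0.64 ± 0.05, edgeR adjusted p = 4.66e-08) and DUSP8 (-0.56 ± 0.11, 0.00183) were lower, as DUSP16 was.

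In the JNK and p38 cascade, whose kinases DUSP16 acts on, 6 of 22 tested genes rose and 5 fell (median -0.11), shares close to the 20.6% and 21.3% of all tested genes. The p38 genes MAPK13 (0.47 ± 0.05, edgeR adjusted p = 2.61e-06) and MAPK11 (1.28 ± 0.22, 0.000144) and the JNK scaffold gene MAPK8IP3 (0.32 ± 0.07, 0.00155) were higher. MAPK11 was at a mean of only 0.878 CPM in DMSO and 2.12 with oridonin. The p38 gene MAPK14, at 116 CPM in DMSO and 102 with oridonin, was lower (-0.19 ± 0.05, edgeR adjusted p = 0.00606). The p38 gene MAPK12 was not called (0.13 ± 0.07, edgeR adjusted p = 0.158), so the p38 genes had no common direction. MAP2K6, a kinase that activates p38, was lower (-1.25 ± 0.12, edgeR adjusted p = 4.58e-07), as was the JNK gene MAPK9 (-0.39 ± 0.06, 9.06e-05). With total-count scaling the counts were 10 higher and 3 lower.

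Retinoic acid, the inducer that GPRC5A is named for in older nomenclature, was followed through 15 tested genes of its receptors and response, of which 4 rose and 5 fell (median -0.09), beside 20.6% and 21.3% of all tested genes. The receptor gene RXRA (-0.41 ± 0.05, edgeR adjusted p = 1.18e-05), the retinol importer STRA6 (-1.48 ± 0.27, 0.000301) and CYP26A1 (-1.46 ± 0.30, 0.000845), which breaks down retinoic acid and is itself a classical target, were lower. RDH10, a retinol dehydrogenase (0.47 ± 0.07, edgeR adjusted p = 2.73e-05), was among those higher. GPRC5A and CYP26A1 therefore had opposite signs.

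Beside HEBP1, 5 of 16 tested genes of heme synthesis, export and breakdown were higher and 4 lower (median 0.08), beside 20.6% and 21.3% of all tested genes. The biliverdin reductases BLVRA (0.48 ± 0.06, edgeR adjusted p = 5.75e-06) and BLVRB (0.53 ± 0.08, 0.000157) and the synthesis enzyme UROD (0.41 ± 0.05, 1.39e-05) were higher, and the heme exporter FLVCR1 (-0.36 ± 0.07, 0.000281) and the synthesis enzyme CPOX (-0.23 ± 0.05, 0.00169) were lower. Beside CREBL2, 2 of 12 tested CREB factors and coactivators were higher and 2 lower (median -0.11), close to the same shares of all tested genes. CREB3L3, a liver factor of lipid metabolism (1.26 ± 0.18, edgeR adjusted p = 3.09e-05), and the coactivator CRTC2 (0.30 ± 0.07, 0.00221) were higher, and CREB3L2 (-0.44 ± 0.05, 7.24e-07) and CRTC1 (-0.23 ± 0.08, 0.0312) lower. CRTC1 was not called without DMSO library 2 (edgeR adjusted p = 0.0691), DMSO library 3 (0.102) or oridonin library 1 (0.158). Nor was it called with total-count scaling (edgeR adjusted p = 0.141) or no low-count filter (0.0555). Its call was also lost with DESeq2's own test (adjusted p = 0.0804) and with limma on the deposited log2 FPKM (limma adjusted p = 0.144).

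Beside DDX47, 5 of 14 other nucleolar helicases were higher and 2 lower (median 0.08), where 20.6% and 21.3% of all tested genes were, and the changes were small. DDX24 (0.25 ± 0.05, edgeR adjusted p = 0.00160), DDX27 (0.18 ± 0.05, 0.00537) and DDX56 (0.17 ± 0.05, 0.0170) were higher, and DHX33 (-0.24 ± 0.05, 0.000700) and DDX21 (-0.13 ± 0.05, 0.0273) lower. The number called higher was 2 without DMSO library 1 or DMSO library 2 and 3 without oridonin library 1 or 2, and DDX56 lost its call without DMSO library 1 (edgeR adjusted p = 0.0961), DMSO library 2 (0.0820) or oridonin library 3 (0.0626). The number called lower was 1 without DMSO library 1 or 2 or oridonin library 1 or 3, where DDX21 was not called (edgeR adjusted p of 0.0508, 0.144, 0.0622 and 0.108). DDX21 also lost its call with total-count scaling (edgeR adjusted p = 0.371), upper-quartile scaling (0.0567) or no low-count filter (0.108). With limma on the deposited log2 FPKM it was not called either (limma adjusted p = 0.0900).

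EMP1 and GPRC5A are often described among genes of the epithelial cell surface and of wound repair, so a list of 32 such genes was read beside them. Of the 26 tested, 17 rose and 4 fell (median 0.52 on the log2 scale), where 20.6% of all tested genes were higher and their median was 0.01. PLAUR, the urokinase receptor, was at 3.45 ± 0.250 CPM in DMSO and 15.3 ± 0.488 with oridonin (log2 fold change 2.14 ± 0.10, edgeR adjusted p = 9.29e-11). The calcium-binding proteins S100A6 (1.12 ± 0.06, edgeR adjusted p = 3.42e-10) and S100A11 (0.92 ± 0.05, 1.05e-09) were also higher. The keratin KRT23 (-0.33 ± 0.05, edgeR adjusted p = 0.000102) was among those lower, as were KRT17 and ITGB4. This list was drawn up with results of these libraries known, so its direction is not independent evidence. The 6 genes not tested, ANXA1, KRT7, CD44 and CAV1 among them, had at most 18 counts in any library.

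**Figure D5:**
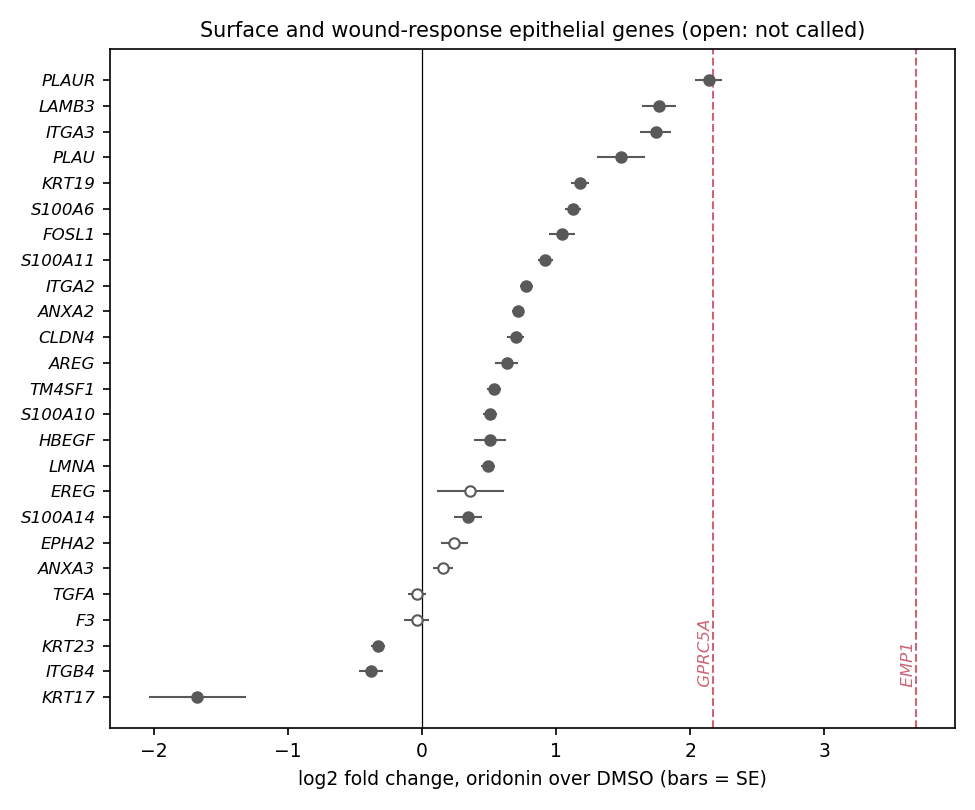
Log2 fold change of oridonin over DMSO (horizontal axis, bars = SE) of tested surface and wound-response epithelial genes (vertical axis, sorted, all but 1 of the 26), with open points for genes not called and dashed lines at GPRC5A and EMP1. PLAUR at 2.14 lies close to the line of GPRC5A at 2.17, and no gene plotted reaches the line of EMP1 at 3.69.

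The genes whose profile over the 6 libraries was most like that of GPRC5A or EMP1 were found by the root mean square difference of log2 CPM, each gene centred on its DMSO mean, over 9415 other genes that reached 10 CPM in whichever group was higher. For GPRC5A they were the phosphatase gene DUSP5 (difference 0.0889 log2 units), PLAUR (0.102) and the signalling protein gene WNT7B (0.140). For EMP1 they were the B cell receptor gene CD79A (0.225), the matrix metalloproteinase gene MMP3 (0.247) and JCAD, a junction protein gene (0.741), so the third lay much farther off than the first pair. This is a description of likeness in 6 libraries of the same comparison.

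Markers of the cell types these genes are best known from were measured in the same libraries. Of 7 squamous epithelial markers, KRT5, KRT14, KRT4, TP63 and IVL had 0 counts in all 6 libraries, and the sum of the list was at most 0.0649 CPM in any library. Of 7 lung epithelial markers, SFTPA1, SFTPC and SCGB1A1 had 0 counts in all 6, and the sum was 4.28 to 5.20 CPM in DMSO and 3.33 to 4.21 with oridonin, mostly from AGER. A list of 10 gut epithelial markers summed to 57.0 to 70.7 CPM in DMSO and 36.6 to 42.8 with oridonin, led by FABP1, which was lower. However, 6 of the 8 tested genes of this list were called higher and 1 lower, where 20.6% and 21.3% of all tested genes were. The 6 had low counts, fewest in DMSO library 1: in DMSO PIGR had 2, 9 and 9, OLFM4 0, 22 and 14 and LGALS4 2, 44 and 36. LGALS4 was called in 8 of 15 alternatives, CDH17, whose groups overlapped, in 8 of 14 and TFF3 in 10 of 15. PIGR was called in 12 of 15, and OLFM4 and MUC2 each in 13 of 14. The 10 endothelial markers, read beside APOLD1, summed to 50.5 to 61.7 CPM in DMSO and 140 to 166 with oridonin, led by the junction gene ESAM, with EMCN at 0 counts and VWF at 10 to 18. Of 7 tested endothelial markers 4 were called higher and 2 lower, where 20.6% and 21.3% of all tested genes were. ROBO4 (log2 fold change 3.25 ± 0.28, edgeR adjusted p = 1.03e-07) and TIE1 (1.67 ± 0.15, 1.75e-07) were higher. So were ESAM (1.52 ± 0.11, edgeR adjusted p = 2.42e-06) and PECAM1 (0.45 ± 0.12, 0.00674). The cadherin gene CDH5 fell from a mean of 0.468 to 0.132 CPM (log2 fold change -1.81 ± 0.43, edgeR adjusted p = 0.00285). CLDN5 was also lower (-1.01 ± 0.36, edgeR adjusted p = 0.0334), but was called in only 7 of 14 alternatives. Among 10 plasma cell markers the sum was 0.365 to 18.2 CPM in DMSO and 25.4 to 77.2 with oridonin, led by IGHA1, and it differed widely between libraries of one treatment. Of 8 tested plasma cell markers 2 were called higher and none lower, where 20.6% and 21.3% of all tested genes were. The leukocyte list of 5 genes went from 682 to 715 CPM to 422 to 452, led by LYZ, and the fibroblast and stellate list of 7 from 59.1 to 68.6 CPM to 36.1 to 36.6. That sum was mostly PDGFRB, which was lower (-0.92 ± 0.07, edgeR adjusted p = 1.09e-08). Of 3 tested genes of the list 1 was called higher and 1 lower, beside 20.6% and 21.3% of all tested genes. COL1A1 was the one higher (1.14 ± 0.39, edgeR adjusted p = 0.0372), called in 11 of 15 alternatives, and COL1A2 was not called. COL3A1, DCN, LUM and PDGFRA failed the low-count filter. The part of the gut, endothelial and plasma cell markers in the rise of GPRC5A and EMP1 was not tested.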

How the data were processed

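RNA was sequenced from 6 HepG2 samples, 3 per treatment. The raw counts per gene and the log2 FPKM values are as deposited by the authors, and the gene names, positions and lengths come from the deposited annotation columns. The build hg38 and DESeq2 1.10.1 are named per the submitters' processing notes. Which aligner, counter and strand setting served is not given in the sources used here.

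Counts were fitted with edgeR 4.0.16 in R 4.3.3 (robust quasi-likelihood test, filterByExpr, TMM scaling, treatment as the only term), with Benjamini-Hochberg adjustment over 15116 genes and calls at an adjusted p under 0.05. The SE is the size of the log2 fold change over the square root of F. CPM carries TMM factors. The fit recovered large known changes when tested on simulated data, in which few genes changed and all genes had the same spread. That simulation does not vouch for calls of small changes, or for a comparison in which many genes change. The 8 genes and all gene lists were chosen with earlier results of these data known. Named beside the 8 are the tested genes of the interval and families, of every other list up to 3 called genes with the smallest p in the commoner direction and 2 in the other, and 3 like genes each for GPRC5A and EMP1 (log2 CPM with a prior count of 2). KRT17, ITGB4, MAPK12, MAPK14, ALB and the flanking and marker genes are named outside this rule, after their values were seen. A few genes this rule would name are left out of the text and of a plot. Exon overlaps come from GENCODE 29, whose coordinates equal the deposited ones for all 8 genes and for 17160 of 18256 shared genes. Sequences come from RefSeq's promoter table on GRCh38.p14. There were 15 alternatives, covering scaling, filter, test, replicate block and each library left out. Reads are not independent molecules, so the floor of 3 counts covers counting error only.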

Additional observations from a re-analysis of the deposited data

How the results depend on the processing

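Across the 15 alternatives EMP1 kept a log2 fold change between 3.59 and 3.79 and GPRC5A between 2.08 and 2.31. DUSP16 ran from -0.48 to -0.38 and HEBP1 from 0.24 to 0.34. Total-count scaling gave the values nearest 0 for DUSP16 and farthest from 0 for HEBP1. GPR19 (-0.79 to -0.17), APOLD1 (0.03 to 0.72) and DDX47 (0.24 to 0.73) were called in none of the 14 in which they were tested. Over all genes 3118 were higher and 3214 lower; with each library left out the counts were 2534 to 3258 and 2748 to 3289, with total-count scaling 4487 and 2359, and with DESeq2's test 2441 and 2862. Of 50 other genes followed, none that was called changed sign, while GPRC5D (-0.21 to 0.05), RP11-180M15.7 (-0.15 to 0.11) and APOL3 (-0.35 to 0.07), which were not called, crossed 0. Another 27 values in 7 genes (CRTC1, DDX21, DDX56, DUSP1, GPRC5C and HEBP2 among them) missed the threshold; the cause was not tested.

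The replicate numbers in the labels were tried as a block. With the replicate block 3850 genes were higher and 3839 lower, EMP1 was at 3.69 and GPRC5A at 2.17. Deviations of same-numbered libraries from their group means correlated at 0.19, 0.065 and 0.17, and each library correlated best with its own number. Between libraries of different numbers the correlations ran from -0.16 to 0.0073. The labels do not say that a number marks a shared batch, so the main fit has no such term. Whether same-numbered libraries shared a batch is not known.

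GPR19, APOLD1 and DDX47 had 6 to 21 counts per library, and the part of depth and of the shared APOLD1 and DDX47 exons in these low counts was not tested.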
